A study of Mus musculus with 19 samples.

Results

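All 19 hearts of the series were used to compare the cardiac response to a high fat diet with and without a working cardiomyocyte clock, 1 bead array per animal. For each of 14751 genes the high fat minus normal diet difference was taken in wild-type (WT) hearts and in CCM hearts, and the WT response was subtracted from the CCM response. CCM mice are transgenic animals whose cardiomyocytes have no functional circadian clock. Every animal was of the FVB/N strain, and hearts were collected at zeitgeber time (ZT) 18, when mice are active, after 16 weeks on either diet. The WT animals numbered 5 on the normal and 4 on the high fat diet, and the CCM animals 5 on each. Sex and age are not in the labels.

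The circadian clock is a loop of transcription factors, CLOCK and BMAL1 (gene Arntl) as activators and the PER and CRY proteins as repressors, that runs in most cells. CCM mice are known as a line in which a dominant-negative form of CLOCK is made in cardiomyocytes from the alpha myosin heavy chain promoter, so the clock of the other heart cells is not the target. The heart burns mainly fatty acids. Fatty acids that enter the cardiomyocyte activate the nuclear receptor PPAR alpha, which switches on genes of fatty acid import, oxidation and storage, and the study asked how the clock bears on myocardial triglyceride metabolism.

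Mean array signal lay between 418.75 and 580.37, and 17117 to 18731 of 46643 probes were detected. Values below are log2 normalized signals unless they are given as folds, and the number of animals and the signal over background limit their precision. A Clock probe read 6.16 to 8.40 in the 9 WT hearts and 14.96 to 15.48 in the 10 CCM hearts, with no overlap. The 8 cardiomyocyte markers were all measured and their summed signal overlapped between the 4 groups, with medians from 274513 to 280746. Animal 32, the fourth normal-diet CCM heart, stood apart from its group for several diet and adipocyte genes, and results that rest on it are given with and without it.

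No gene passed the test for a difference between the diet responses of the genotypes. In limma's moderated test over all 14751 genes, 0 were called at an adjusted p under 0.05, and the smallest adjusted p was 1. At an unadjusted p under 0.05 there were 400 genes, 2.71% of those tested, of which 168 had the higher response in CCM hearts (1.14%) and 232 the lower (1.57%). A threshold of 0.05 passes that proportion of genes on average where none differs, and the share here was smaller. Genes named below by an unadjusted p are thus described and not established as different. The median 95% interval of the difference reached 0.395 log2 units to either side, so the design could bound many differences: the interval lay within 1.5-fold in either direction for 8614 genes, 58.4%. A p that misses the threshold is not read below as a like response.

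Diet itself did change genes. Averaged over the genotypes, 37 genes rose (0.251%) and 8 fell (0.0542%) on the high fat diet, 45 in all or 0.305% of those tested, by limma with adjusted p under 0.05. The direction was the same in WT and CCM hearts for all 45. For 24 of them, 21 that rose and 3 that fell, the 95% interval of the genotype difference lay within 1.5-fold, and these are called alike here. Over all genes 58.4% met the same interval rule, so the count is not particular to diet genes. The band of 0.585 log2 units is wider than some average responses, as for Eci1 (0.32) and Agpat3 (0.27). Alike thus bounds the difference and does not show an equal share of the response. Of the 45, the response was smaller in CCM hearts for 31 and larger for 14, and 8 had an unadjusted p under 0.05 for the difference. Tested within a genotype, 6 genes were called in WT hearts (0.0407%, all higher) and 4 in CCM hearts (0.0271%, 3 higher, which is 0.0203%, and 1 lower). At an unadjusted p under 0.05 the share of genes was 3.1% in WT (1.99% higher) and 8.77% in CCM hearts (4.28% higher and 4.49% lower), and 8.3% for the average (4.11% higher and 4.19% lower). In 0.108% of genes all high fat hearts lay above all normal-diet hearts in both genotypes. Such separate counts do not show that the genotypes differ.

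These counts leaned on single animals. Without the third WT high fat heart the average effect was called for 22 genes, and without the second for 23. Leaving out the first normal-diet CCM heart gave 28, and leaving out the fifth gave 68. Without animal 32 it was 36, of which 31 were higher. The WT count was 2 without the first, the second or the third high fat WT heart or the fifth normal-diet one, and 3 without the first normal-diet one. The CCM count was 0 without the first or the third normal-diet or the fourth high fat CCM heart, 2 without the second high fat CCM heart, and 8 without the fifth high fat CCM or the fourth high fat WT heart. The count of genes alike was 9 without the second or the third WT high fat heart and 41 without the fifth normal-diet CCM heart. It was 13 without the first normal-diet or the second high fat CCM heart, and 15 without the fourth high fat CCM or the fourth normal-diet WT heart.

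**Figure D1:**
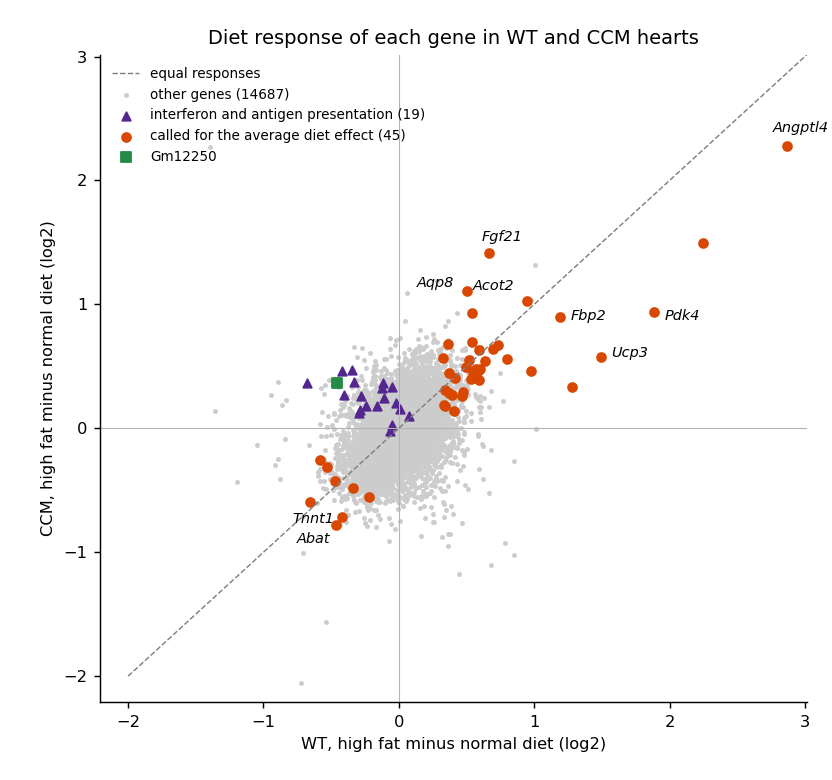
Diet response of each of 14751 genes in WT hearts (x axis) and CCM hearts (y axis), as high fat minus normal diet means on the log2 scale. Orange points are the 45 genes called for the average diet effect, all with the same sign on both axes, purple triangles are the 19 measured interferon and antigen presentation genes, the green square is Gm12250, and the dashed line marks equal responses.

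The shared response was led by genes of fatty acid use that PPAR alpha is known to control. Of 22 measured PPAR alpha targets, 8 rose in the average over genotypes and none fell, against 0.251% of all genes higher. Their median response was 0.39 in WT and 0.36 in CCM hearts, where the medians of all genes were 0.01 and -0.01. Among the 8 were Angptl4, Pdk4, Ucp3, Fgf21, Acot2, Cidea and Plin2. The list as a whole was not closely bounded as alike. The interval of the genotype difference lay within 1.5-fold for 36.4% of the 22, against 58.4% of all genes. The CCM response was the higher for 27.3%, against 46.7% of all genes. At an unadjusted p under 0.05, 1 difference was higher and 3 were lower, against 1.14% and 1.57% of all genes.

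Angptl4, a secreted inhibitor of lipoprotein lipase, had the largest average change, 5.94-fold (log2 2.57, SE 0.37, adjusted p = 0.00246). WT hearts read 7.86, 6.91, 8.69, 7.75 and 7.81 on the normal diet and 10.45, 11.14, 11.31 and 9.77 on the high fat diet. CCM hearts read 7.04, 7.42, 7.11, 9.82 and 7.54, then 8.55, 10.72, 9.86, 10.52 and 10.65. Animal 32 is the 9.82 among the normal-diet CCM hearts, above 1 of the 5 high fat ones. The responses were 2.87 in WT and 2.27 in CCM, and their difference of -0.59 had a 95% interval of -2.13 to 0.95, too wide to call it alike or different. Without animal 32 the CCM response was 2.78 and the difference -0.08.

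Pdk4, the kinase that turns off pyruvate dehydrogenase and so spares glucose, read 12.86, 12.36, 12.88, 12.58 and 12.33 in WT hearts on the normal diet and 14.89, 14.60, 14.84 and 13.62 on the high fat diet. CCM hearts read 12.76, 12.75, 12.56, 14.11 and 12.68 on the normal diet and 13.77, 14.45, 13.55, 14.01 and 13.75 on the high fat diet. The WT groups did not overlap, and the CCM groups overlapped only through animal 32. The WT response was 1.89 (3.70-fold, adjusted p = 0.015) and the CCM response 0.93 (1.91-fold, adjusted p = 0.5). The difference was -0.95 with a 95% interval of -1.80 to -0.11 (unadjusted p = 0.0296), and -0.67 without animal 32 (unadjusted p = 0.0493).

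Ucp3, a carrier of the inner mitochondrial membrane, had a response of 1.49 in WT and 0.57 in CCM hearts and rose on average (adjusted p = 0.023). Its WT values were 5.58, 5.30, 5.47, 5.58 and 5.11 on the normal diet and 6.59, 7.28, 7.68 and 6.04 on the high fat diet. The CCM values were 5.07, 5.27, 5.02, 5.94 and 5.16, then 5.40, 6.55, 5.45, 5.86 and 6.07. Only 1 normal-diet CCM heart, animal 32, had the probe above background, and 4 of 5 high fat CCM hearts did. The difference was -0.92 (unadjusted p = 0.03), and -0.76 without animal 32 (unadjusted p = 0.062). The average effect itself lost its call when any of 4 single hearts was left out, with an adjusted p of up to 0.0727.

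The intervals of the remaining genes show how closely their responses were bounded. Cidea, a protein of lipid droplet fusion, had responses of 0.74 in WT and 0.67 in CCM hearts, and the difference was -0.07 with a 95% interval of -0.44 to 0.31. Acot2, a mitochondrial acyl-CoA thioesterase, gave 0.95 and 1.03, but its interval of -0.68 to 0.83 was too wide for a call of alike. Its average call was lost without the second or the third high fat WT heart (adjusted p up to 0.0606). Plin2, a coat protein of lipid droplets, gave 0.69 and 0.64 with an interval of -0.63 to 0.53. Fbp2, the muscle fructose-1,6-bisphosphatase, which is outside that list, gave 1.19 and 0.90 with an interval of -0.82 to 0.24 and groups that did not overlap in either genotype.

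**Figure D2:**
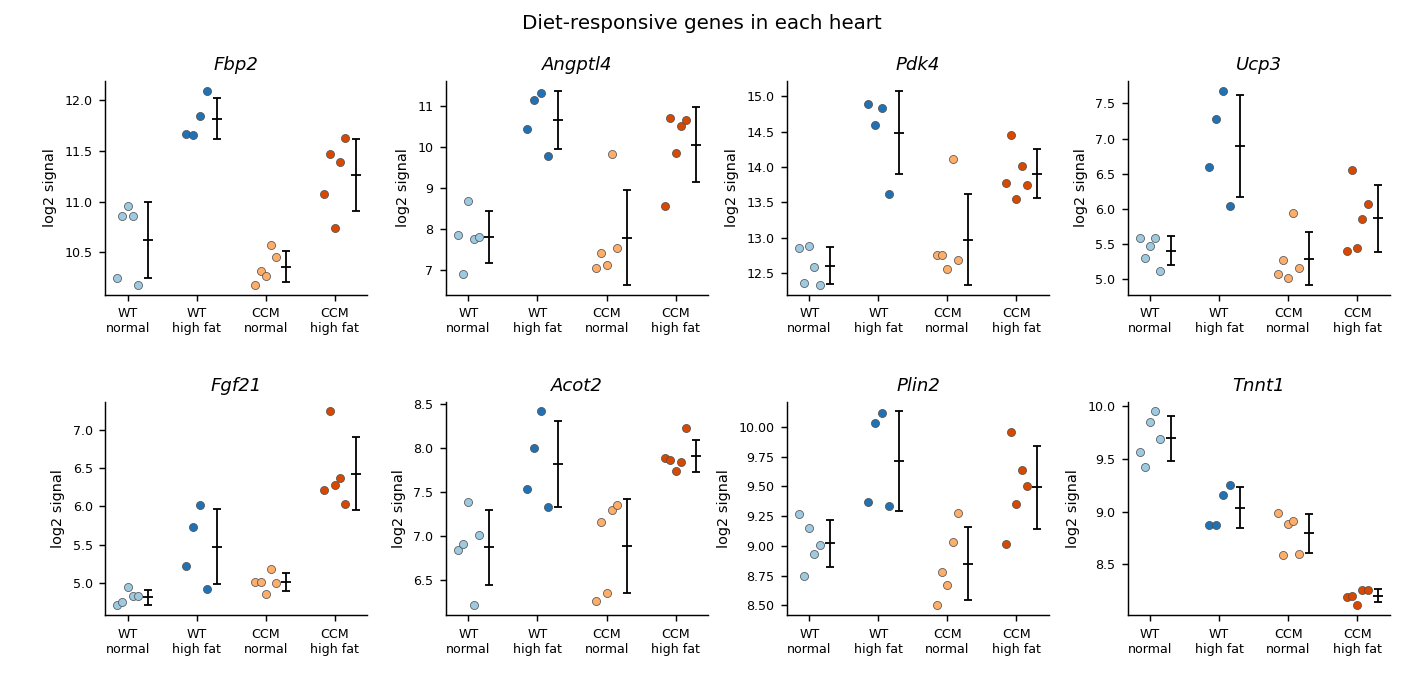
Log2 normalized signal of 8 diet-responsive genes in each heart, with 1 point per animal and the mean and SD beside each group. Fbp2 and Tnnt1 show no overlap between diets in either genotype, while the fourth normal-diet CCM heart is the high point for Angptl4 (9.82), Pdk4 (14.11) and Ucp3 (5.94).

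Most fatty acid oxidation genes had higher means on the high fat diet in both genotypes. Of 27 measured, Acot2, Decr1 and Eci1 rose by the adjusted test, and 17 had an unadjusted p under 0.05 with a higher average, against 4.11% of all genes. The median response was 0.30 in WT and 0.17 in CCM hearts. The interval of the genotype difference lay within 1.5-fold for 16 of the 27, or 59.3%, near the 58.4% of all genes. Decr1 and Eci1 act on unsaturated fatty acids, as a dienoyl-CoA reductase and an enoyl-CoA isomerase. Decr1 had responses of 0.57 and 0.48 and Eci1 of 0.34 and 0.31, both alike within 1.5-fold and without overlap between diets in either genotype. Acaa1b, a peroxisomal thiolase, alone passed the unadjusted threshold for the difference (0.41 in WT and -0.06 in CCM hearts, unadjusted p = 0.00949). Of all genes 2.71% passed it.

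Few triglyceride genes passed the test. Among 13 measured synthesis genes, Gk and Agpat3 rose on average, against 0.251% of all genes, and no member fell, against 0.0542%. With 1 animal left out in turn, Gk lost its call in 4 of 19 fits (adjusted p up to 0.0661) and Agpat3 in 13 (up to 0.0744). Gk, the glycerol kinase, had responses of 0.37 in WT and 0.44 in CCM hearts. Agpat3, an acyltransferase that adds the second fatty acid, read 10.33, 10.38, 10.22, 10.18 and 10.23 in WT hearts on the normal diet and 10.70, 10.71, 10.63 and 10.66 on the high fat diet. In CCM hearts it read 10.72, 10.82, 10.57, 10.70 and 10.73, then 10.87, 10.96, 10.83, 10.65 and 10.91. The WT groups did not overlap and the CCM groups did. Its difference of -0.27 had an interval of -0.50 to -0.05 (unadjusted p = 0.0196), which is inside 1.5-fold, so the gene is both alike by that rule and nominally lower in its CCM response.

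The remaining synthesis genes did not pass either test. Gpam and Gpat3, which begin glycerolipid synthesis, gave 0.31 and 0.42 in WT against 0.27 and 0.46 in CCM hearts. Dgat1 and Dgat2, which make triglyceride from diacylglycerol, gave 0.01 and 0.10 against -0.10 and 0.07. Agpat2 gave 0.26 and 0.43 with an average adjusted p of 0.056. A dimmer Agpat2 probe, detected on all 19 arrays, gave larger responses, 0.49 in WT and 0.85 in CCM hearts, and did not stand for the gene in the test. On the hydrolysis and droplet side, Cidea, Mgll and Plin2 rose among 19 measured genes, against 0.251% of all genes. Plin2 lost its call in 15 of the 19 fits that leave out 1 animal (adjusted p up to 0.136), and Cidea and Mgll in none. Mgll, the monoacylglycerol lipase, gave 0.46 in WT and 0.26 in CCM hearts, was alike within 1.5-fold and did not overlap between diets in either genotype.

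The ATF4 stress program, which cells use against amino acid shortage and mitochondrial stress, had 4 of 19 measured genes higher on average, against 0.251% of all genes: Fgf21, Trib3, Mthfd2 and Asns. Fgf21, a stress hormone that PPAR alpha and ATF4 both control, was not well above background in any normal-diet heart of either genotype. It was detected in 2 of 4 WT and 5 of 5 CCM hearts on the high fat diet. WT values were 4.71, 4.75, 4.95, 4.83 and 4.83, then 5.22, 5.73, 6.02 and 4.93. CCM values were 5.02, 5.02, 4.86, 5.18 and 5.0, then 6.22, 7.24, 6.28, 6.37 and 6.03. All 5 high fat CCM hearts lay above every other heart of the series.

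Measured against the lowest detected signal per array, Fgf21 was at least 1.95-fold higher on the high fat diet in CCM hearts (means 6.43 and 5.02, adjusted p = 0.015). No fold is given for WT hearts, where such a bound falls under 1 (means 5.47 and 4.81). The fitted responses were 0.66 and 1.41, and their difference of 0.75 (interval 0.14 to 1.35, unadjusted p = 0.018) rests on normal-diet values that are below background. Trib3, a pseudokinase of the same program, read 7.02, 7.70, 7.55, 7.71 and 7.71 in WT hearts on the normal diet and 7.82, 7.94, 8.07 and 7.78 on the high fat diet. In CCM hearts it read 8.04, 7.98, 8.13, 7.85 and 8.20, then 8.78, 8.77, 8.90, 8.61 and 8.54. The diets did not overlap in either genotype.

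The Trib3 responses were 0.36 in WT and 0.68 in CCM hearts, with a difference of 0.32 and an interval of -0.06 to 0.69. Mthfd2, a mitochondrial folate enzyme, gave 0.54 and 0.93. Asns, the asparagine synthetase, gave 0.55 and 0.46 and was alike within 1.5-fold, and it is named because it is the fourth called member, chosen after its values were seen. These values are of its brightest probe, while a dimmer Asns probe, detected on all 19 arrays, gave -0.02 in WT and 0.04 in CCM hearts. The brightest probe lost its average call in 16 of the 19 fits that leave out 1 animal (adjusted p up to 0.136). In the list 7 of 19 differences were above 0, against 46.7% of all genes, and the median was -0.05. Atf4 itself, added after its values were seen, gave 0.10 and 0.09.

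A search of RefSeq promoters (GRCm38.p6, a window around each gene's start) for the E-box CACGTG, the letters that CLOCK and BMAL1 are known to bind, found it in 9 of the 32 called genes with a promoter in that table (28.1%), 11.5% of tested genes and 8.09% of all. The motif reads the same on both strands. Among the 9 were Fgf21, Plin2, Fbp2, Gk, Mgll, Gcat and Aqp8. The direct repeat of AGGTCA with 1 base between, for which PPAR alpha is known, the same repeat of AGGNCA, and the D-box TTATGTAA, each on both strands, were in none of the 32 windows, and in 0.0219%, 0.262% and 0.787% of tested genes. A match in letters is a description of the sequence and not a binding site. The Fgf21 promoter is shown because the gene had the largest CCM response among those with a match, at chr7:45615441-45615740 on the minus strand, with the E-box in capitals.
Fgf21: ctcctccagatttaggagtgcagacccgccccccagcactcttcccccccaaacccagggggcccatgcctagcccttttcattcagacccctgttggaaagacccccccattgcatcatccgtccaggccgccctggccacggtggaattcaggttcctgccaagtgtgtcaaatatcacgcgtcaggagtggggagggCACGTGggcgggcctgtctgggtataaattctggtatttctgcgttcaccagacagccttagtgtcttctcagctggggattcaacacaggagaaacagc

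Genes outside lipid use were also called for the average over genotypes. Aqp8, a water channel, was not well above background in WT hearts on the normal diet and was at least 1.26-fold higher on the high fat diet there (means 5.30 and 5.81, adjusted p = 1). Its CCM response was 1.11 (adjusted p = 0.039), and it rose on average (adjusted p = 0.0103). Tnnt1, the slow skeletal troponin T, fell in the average by 0.62 on the log2 scale (adjusted p = 0.00116). It read 9.56, 9.42, 9.85, 9.95 and 9.69 in normal-diet WT hearts and 8.87, 8.87, 9.16 and 9.25 in high fat ones. CCM hearts read 8.99, 8.59, 8.88, 8.91 and 8.60, then 8.19, 8.20, 8.11, 8.26 and 8.26. The responses, -0.65 in WT and -0.59 in CCM hearts, were alike within 1.5-fold, although the CCM level was lower on both diets.

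Other genes that fell were Abat, which breaks down the transmitter GABA (-0.46 in WT and -0.78 in CCM), Whrn (-0.42 and -0.71), Prps2, an enzyme of nucleotide synthesis (-0.53 and -0.32), and Septin6 (-0.59 and -0.25). With 1 animal left out, Prps2 lost its average call in 16 of 19 fits (adjusted p up to 0.14), Septin6 in 12 (up to 0.0979) and Prokr1 in 9 (up to 0.0848). Prokr1, a prokineticin receptor, was not well above background in any high fat CCM heart and was there at least 1.11-fold lower (means 5.65 and 5.22), with a WT response of -0.47. Gcat, a mitochondrial enzyme of threonine breakdown, read 10.31, 10.55, 10.27, 10.35 and 10.18, then 10.23, 10.08, 9.97 and 10.15 in WT hearts. CCM hearts read 9.49, 9.21, 9.41, 9.57 and 9.22, then 8.79, 8.76, 8.83, 8.81 and 8.93, with no overlap. Its CCM response of -0.56 passed the test (adjusted p = 0.022), the WT response of -0.22 did not (adjusted p = 1), and the difference of -0.34 had an unadjusted p of 0.0163.

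**Figure D3:**
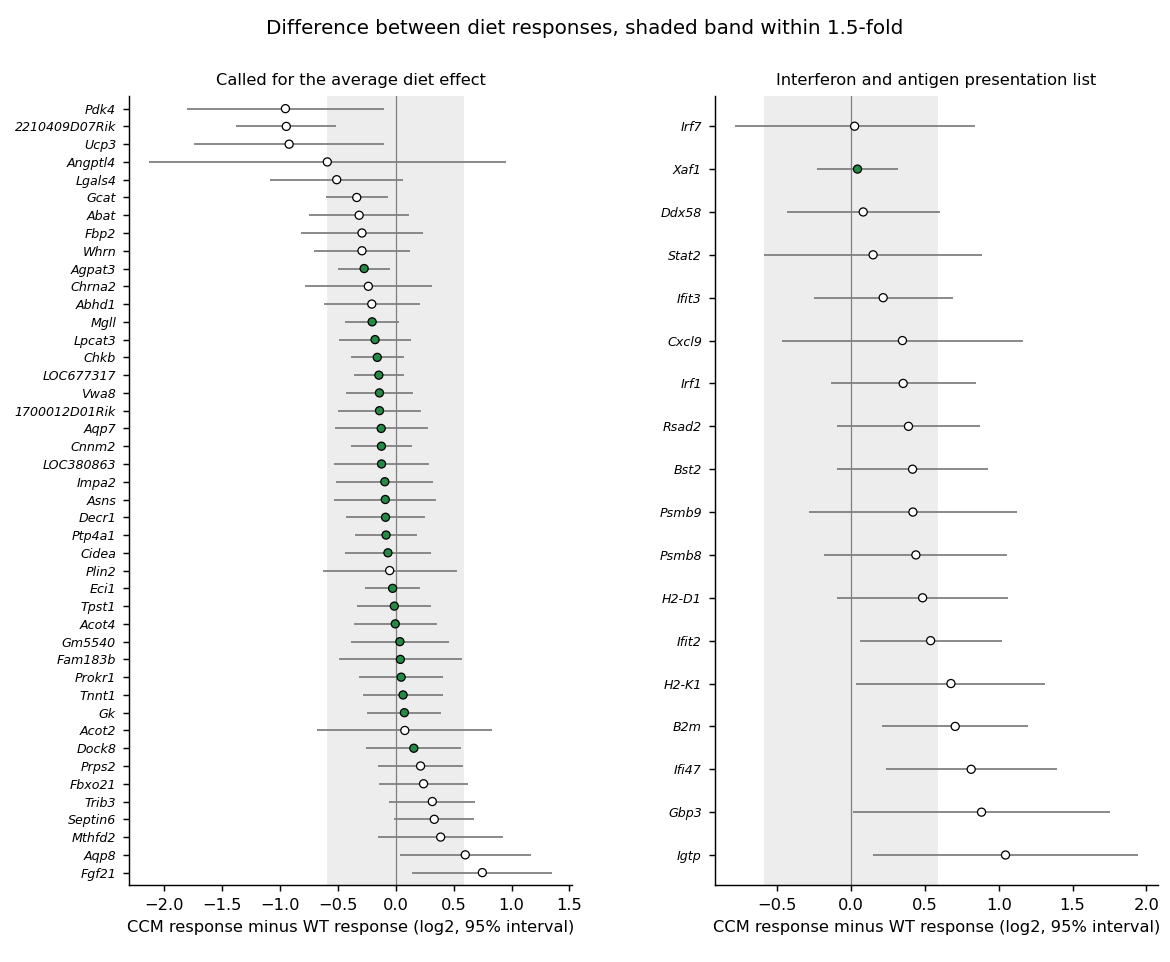
CCM response minus WT response (log2) with its 95% interval for genes called for the average diet effect (left) and measured interferon and antigen presentation genes (right), leaving out genes that are not reported here. Filled points have an interval inside the shaded band of 1.5-fold, 24 on the left and 1 on the right.

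Of the 35 function lists, the interferon and antigen presentation list had the largest median difference between the genotypes' diet responses. Interferons switch on genes that present peptides on MHC class I and that encode antiviral and cell-autonomous defence proteins. All 19 measured genes of 31 listed had a higher response in CCM than in WT hearts, where 46.7% of all genes did. None was called, and 6 had an unadjusted p under 0.05, all in that direction, against 1.14% of all genes. The median response was -0.16 in WT and 0.24 in CCM hearts, and the median difference was 0.42, against -0.01 over all genes. These genes share regulators and animals, so the 19 are not independent, and no set was tested.

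The 6 were B2m, Ifi47, Igtp, Ifit2, H2-K1 and Gbp3, of which Ifit2, H2-K1 and Gbp3 are named after their values were seen. With 1 animal left out, the unadjusted p in limma reached 0.0643 for Igtp, 0.0622 for Ifit2, 0.0843 for H2-K1 and 0.0959 for Gbp3. For B2m and Ifi47 it reached 0.0193 and 0.0246. Without animal 32 it was 0.0744 for H2-K1 and 0.0827 for Gbp3. B2m, the light chain of MHC class I, read 13.30, 12.91, 13.13, 13.40 and 13.77 in WT hearts on the normal diet and 12.77, 12.97, 13.08 and 13.06 on the high fat diet. CCM hearts read 12.67, 13.37, 12.93, 13.08 and 13.14, then 13.38, 12.94, 13.69, 13.42 and 13.63. The groups overlapped in both genotypes. The responses were -0.34 and 0.37 and the difference 0.70 (SE 0.24, unadjusted p = 0.00764). H2-K1, a heavy chain of that complex, gave -0.41 and 0.27 (unadjusted p = 0.0394).

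Ifi47 and Igtp are interferon-inducible GTPases that act on vacuoles holding pathogens. For Ifi47 the responses were -0.35 in WT and 0.47 in CCM hearts, with a difference of 0.81 (unadjusted p = 0.00852). Its highest value was 8.23 in the third high fat CCM heart, and the other 4 of that group lay between 7.21 and 7.46. Igtp gave -0.68 and 0.37, a difference of 1.05 with an interval of 0.15 to 1.94. Gbp3, a guanylate-binding protein, gave -0.42 and 0.46, and Ifit2, an antiviral RNA-binding protein, gave -0.28 and 0.26.

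Gm12250, listed with the synonym Irgb10 in RefSeq's gene table and a GTPase of the same family, had the smallest p for the difference of all 14751 genes (7.13e-05, adjusted p = 1). It was on no list and is named after its values were seen. It read 6.55, 6.12, 6.17, 6.50 and 6.35 in WT hearts on the normal diet and 6.0, 5.85, 5.73 and 5.95 on the high fat diet. CCM hearts read 5.96, 5.96, 5.90, 5.82 and 6.06, then 6.19, 6.16, 6.64, 6.08 and 6.48. All high fat hearts lay below the normal-diet hearts in WT and above them in CCM, and this was the 1 gene of 14751 (0.00678%) with that pattern. The responses were -0.45 and 0.37 and the difference 0.82 (SE 0.16, interval 0.48 to 1.16).

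The median difference of the list stayed above 0 in each subset of animals examined. The list was singled out in these same animals, so the subsets are not independent support. With animals numbered under 20 alone the median difference was 0.26 with 16 of 19 above 0, against a median of 0.006 over all genes. With those numbered over 20 alone it was 0.49 with 18 of 19, against -0.04. Without the third high fat CCM heart, the highest of its group for these genes, it was 0.31, and without animal 32 it was 0.39 with 18 of 19 above 0. The mean over the list read 8.48, 8.29, 8.33, 8.88 and 8.84 in WT hearts on the normal diet. It ran from 8.15 to 8.51 in high fat WT hearts. Only animals 29 and 40 of the normal-diet WT group, at 8.88 and 8.84, lay above that range. The lower list mean of high fat WT hearts thus leans on these animals, which the fit of animals numbered under 20 leaves out. In CCM hearts the list mean ran from 8.14 to 8.52 on the normal diet and from 8.21 to 8.98 on the high fat diet. All 4 ranges overlap.

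Immune cell markers were read beside it. Of 12 measured macrophage markers 11 had a higher response in CCM hearts, against 46.7% of all genes. Their median difference was 0.23, and none had an unadjusted p under 0.05. Their summed signal ran from 4591 to 7224 in normal-diet and 4025 to 6830 in high fat WT hearts, and from 3923 to 6632 and 5005 to 5884 in the CCM groups. Only 4 of 13 lymphocyte markers were measured, with summed signals of 145 to 196 over the groups. In whole heart RNA fewer cells of a type and less RNA per cell cannot be told apart. The 3 measured neutrophil markers of 8 had a median difference of 0.76, and their sums ran from 111 to 2917 over the hearts. The T cell markers Cd4 and Cd8a and the B cell marker Cd79a were not detected on enough arrays to be measured. The part of immune cells in the interferon result was not tested.

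The letters GAAA, any 2 bases and GAAA, the core of the element through which interferon-activated factors are known to bind, were searched on both strands after the list's values were seen. They were in the promoter of 8 of 18 list genes with a RefSeq promoter (44.4%), 3.42% of tested genes and 3.99% of all. On the opposite strand they read TTTC, any 2 bases and TTTC. The list was made of genes known to respond to interferon, so a raised share follows from that choice. It says nothing of diet or genotype. Promoters are printed with the match in capitals for Gm12250 (chr11:58183593-58183892, plus strand), Igtp (chr11:58199306-58199605, plus strand) and B2m (chr2:122147437-122147736, plus strand), since these genes head the difference and hold a match. No match was found for Ifi47, Ifit2 or H2-K1 in this window.
Gm12250: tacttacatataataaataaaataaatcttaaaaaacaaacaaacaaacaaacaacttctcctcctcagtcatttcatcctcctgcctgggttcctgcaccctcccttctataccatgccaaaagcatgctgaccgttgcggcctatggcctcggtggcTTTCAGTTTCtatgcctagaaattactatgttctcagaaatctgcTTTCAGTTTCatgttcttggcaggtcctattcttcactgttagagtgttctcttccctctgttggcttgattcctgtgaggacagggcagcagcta
Igtp: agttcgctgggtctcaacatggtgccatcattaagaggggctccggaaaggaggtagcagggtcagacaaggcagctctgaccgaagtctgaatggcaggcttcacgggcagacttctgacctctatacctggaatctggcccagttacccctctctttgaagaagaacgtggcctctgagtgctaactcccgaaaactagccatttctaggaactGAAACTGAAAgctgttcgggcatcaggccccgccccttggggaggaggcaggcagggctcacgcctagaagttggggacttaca
B2m: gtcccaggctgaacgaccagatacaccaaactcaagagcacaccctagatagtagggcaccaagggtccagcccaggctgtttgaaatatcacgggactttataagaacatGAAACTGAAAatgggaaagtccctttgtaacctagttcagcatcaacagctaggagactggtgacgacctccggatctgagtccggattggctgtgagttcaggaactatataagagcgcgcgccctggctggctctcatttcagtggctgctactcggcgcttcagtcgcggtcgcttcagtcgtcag

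**Figure D4:**
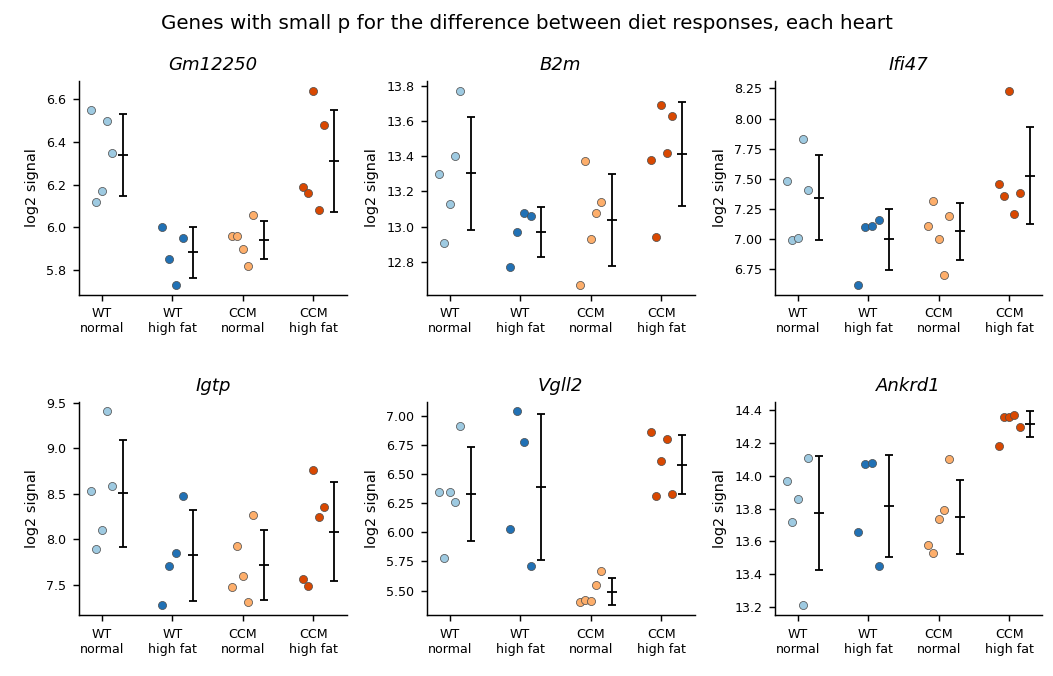
Log2 normalized signal in each heart for 6 genes with a small unadjusted p for the difference between diet responses, with 1 point per animal and the mean and SD beside each group. Gm12250 is lower on the high fat diet in WT and higher in CCM hearts without overlap, while the normal-diet CCM hearts are the low group for Vgll2 (5.40 to 5.67).

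Among heart muscle stress genes, 17 of 28 had a higher CCM response, against 46.7% of all genes. Of the 28, none was called and 3 had a higher CCM response at an unadjusted p under 0.05, against 1.14% of all genes: Vgll2, Ankrd1 and Acta1. Vgll2, a cofactor of TEAD factors, read 6.35, 5.78, 6.35, 6.26 and 6.91, then 6.03, 7.04, 6.78 and 5.71 in WT hearts. In CCM hearts it read 5.40, 5.42, 5.41, 5.55 and 5.67, then 6.86, 6.31, 6.61, 6.80 and 6.33, with no overlap. The responses were 0.06 and 1.09 and the difference 1.03 (unadjusted p = 0.00479).

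Ankrd1, a sarcomere-associated ankyrin repeat protein that marks load on the heart, read 13.97, 13.72, 13.86, 13.21 and 14.11 in normal-diet WT hearts and 13.66, 14.07, 14.08 and 13.45 in high fat ones. CCM hearts read 13.58, 13.53, 13.74, 13.79 and 14.10 on the normal diet and 14.18, 14.36, 14.36, 14.37 and 14.30 on the high fat diet, above all others. Its difference was 0.52 (unadjusted p = 0.0325), and that of Acta1, the skeletal actin of the fetal heart program, was 0.46 (unadjusted p = 0.0349). With 1 animal left out, the unadjusted p in limma reached 0.0903 for Ankrd1, 0.0979 for Acta1 and 0.0144 for Vgll2. The list's median difference was 0.06, and it was -0.09 within the animals numbered under 20. Nppa, the atrial natriuretic peptide, gave -0.89 in WT and 0.38 in CCM hearts (unadjusted p = 0.192), over values that ran from 10.78 to 14.73 in the 4 high fat WT hearts. Nppa is also an atrial marker. The summed atrial signal ran from 7951 to 59170 in normal-diet and 4712 to 54227 in high fat WT hearts. In the CCM groups it ran from 12091 to 43730 and 16270 to 29992. The part of atrial tissue in Nppa's values was not tested.

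By p alone, the genes with official symbols whose CCM response was highest above the WT response were Hap1, Secisbp2l, Ttll11, Spindoc, Hlx, Polr3g and Kcng2, in that order among those detected throughout a group, with differences of 0.53 to 0.79. Ttll11, a tubulin glutamylase, had every high fat WT heart below the normal-diet ones (-0.45, a separation that 0.447% of genes had) and gave 0.34 in CCM hearts. Hlx, a homeobox factor, gave -0.06 and 0.59, with no overlap in CCM hearts. On the other side stood Dmtn, Zfp72 and Mtfmt. Dmtn, an actin-bundling protein of the red cell skeleton, gave 0.43 in WT and -0.29 in CCM hearts (unadjusted p = 0.000607), and Mtfmt, which formylates the mitochondrial initiator tRNA, gave 0.48 and -0.21. The adjusted p of each of these genes was 1.

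The non-coding transcript 2210409D07Rik, named after its values were seen, had the second smallest p for the difference (0.000218). In WT hearts it read 5.0, 5.55, 5.58, 5.19 and 5.02, then 6.53, 6.47, 6.95 and 6.23, without overlap. It was not well above background in any CCM heart of either diet, so its CCM response of 0.33 is not a measured change and the difference has no bound.

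Adipocyte markers had median responses of 0.35 in WT and -0.37 in CCM hearts, with none called. All 6 measured of 9 listed had the lower response in CCM hearts, where 46.7% of all genes had the higher one. The median difference was -0.56. Cfd, Cidec and Adipoq had an unadjusted p under 0.05, against 1.57% of all genes with a lower CCM response. Adipoq, the adipocyte hormone adiponectin, read 6.34, 7.18, 6.95, 7.41 and 6.34, then 6.77, 7.93, 6.78 and 7.67 in WT hearts. In CCM hearts it read 8.44, 7.0, 7.47, 9.52 and 6.98, then 6.37, 8.31, 5.83, 6.02 and 6.99. Animal 32 holds the 9.52, and the summed adipocyte signal reached 2969 in its group against 988 at the lowest. Without it the list's median was -0.44 with 2 of 6 above 0, and Adipoq's difference was -1.21 (unadjusted p = 0.0678). Cidec is also a droplet gene, and the part of adhering fat in its values, or in those of Pdk4, Angptl4 and Ucp3 in the same heart, was not tested.

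Among red cell markers, Hba-a1, an alpha globin, gave 0.20 in WT and 0.74 in CCM hearts (unadjusted p = 0.0457), and 7 of 8 erythroid markers had a higher CCM response, against 46.7% of all genes. Of 26 heat shock genes 20 had a higher CCM response, against 46.7% of all genes, with a median difference of 0.12. Hspb6, a small heat shock protein of muscle, was the 1 member at an unadjusted p under 0.05, against 1.14% of all genes with a higher CCM response. It gave 0.10 in WT and 0.44 in CCM hearts. With 1 animal left out, the unadjusted p in limma reached 0.0866 for Hspb6 and 0.0873 for Hba-a1.

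No core clock gene passed a diet test. Of 18 core clock genes measured, none was called for any contrast and none had an unadjusted p under 0.05 for the average or for the difference. The CCM response was the higher for 14 of the 18, or 77.8% against 46.7% of all genes, with a median difference of 0.09. Clock is among the 14 by its brightest probe (difference 0.59), while its second probe gave 0.01. Arntl lay on the other side, with 0.22 in WT and -0.21 in CCM hearts (unadjusted p = 0.0747). Per1 gave 0.40 and 0.42. Npas2, a partner of BMAL1 like CLOCK, was not well above background in any normal-diet WT heart, so no WT response is given. The interval of the difference lay within 1.5-fold for 6 of the 18, against 58.4% of all genes, so a smaller difference in the others was not detectable with these animals. Hearts were taken at 1 time of day, and a shift in phase or amplitude was not measured.

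Respiratory chain, mitochondrial ribosomal and sarcomere genes had median responses near those of all genes in both genotypes. For 61 respiratory chain and ATP synthase genes the medians were 0.00 in WT and -0.01 in CCM hearts. For 46 of them, or 75.4%, the interval of the difference lay within 1.5-fold, against 58.4% of all genes. For 69 mitochondrial ribosomal proteins the medians were -0.03 and 0.00, with 53 inside, or 76.8%. For 25 sarcomere genes they were -0.01 and -0.01, with 17 inside, or 68%. Tnnt1 was the 1 sarcomere gene called for the average, against 0.305% of all genes. Extracellular matrix genes had medians of 0.14 in both genotypes over 37 genes, above the 0.01 and -0.01 of all genes. None was called, and 5 had an unadjusted p under 0.05 with a higher average, against 4.11% of all genes.

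**Figure D5:**
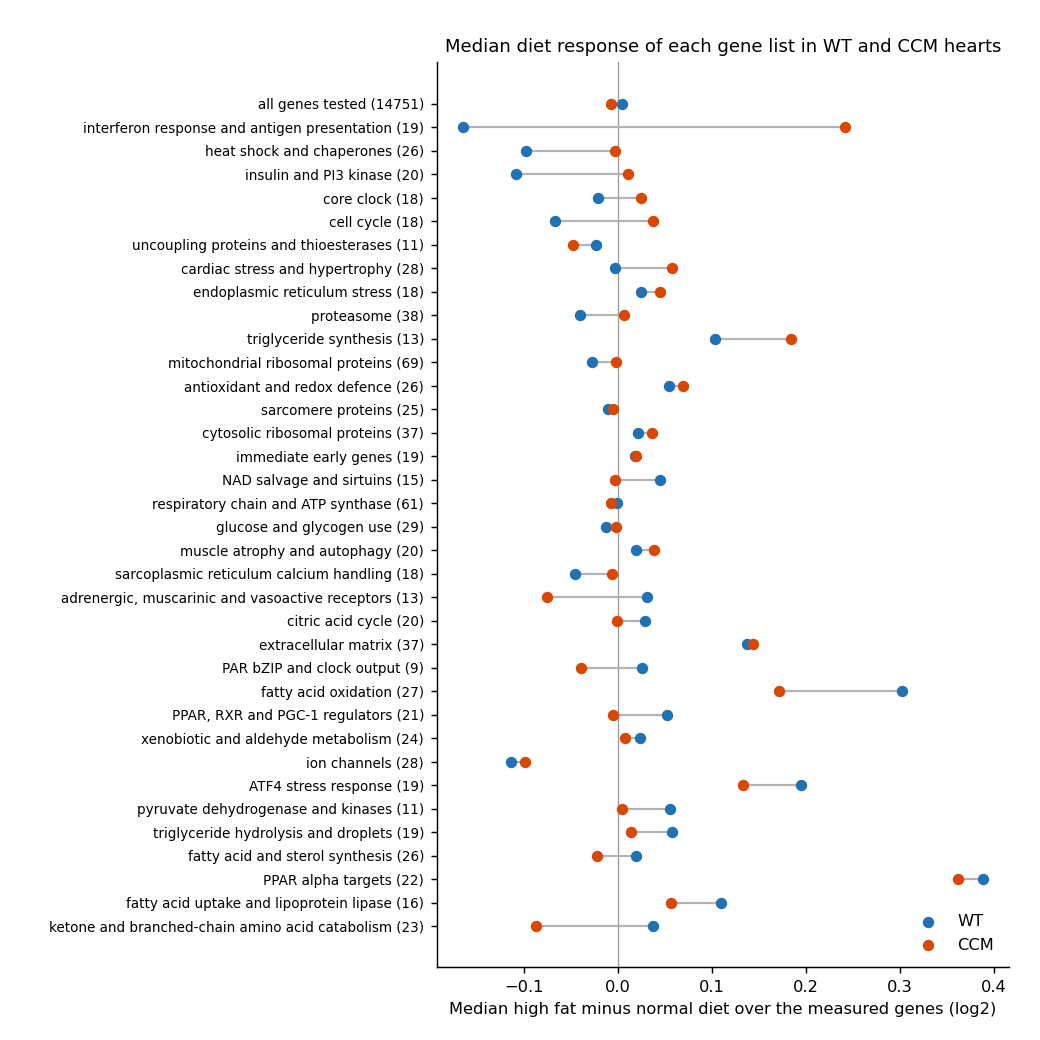
Median high fat minus normal diet response (log2) over the measured genes of each function list, in WT (blue) and CCM hearts (orange), ordered by the median difference, with the number of genes in parentheses. The interferon list is at -0.16 and 0.24, the PPAR alpha targets at 0.39 and 0.36, and all genes near 0.

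Across the 14751 genes the WT and CCM responses, which share no array, had a Pearson correlation of 0.367 and a Spearman correlation of 0.339, as a description over genes that are not independent. Within the 10 animals numbered under 20 the Pearson value was -0.0597, and within the 9 numbered over 20 it was -0.064. The per-gene differences of those same parts correlated at -0.326, while the average diet responses correlated at 0.454. Without the third high fat WT heart the value over all animals was 0.159. The correlation over all genes did not hold within the parts, while the leading diet genes kept their direction in both: Angptl4 was higher on average by 2.97 and 2.18, and Pdk4 by 1.69 and 1.06. Both genes were picked for their average change over these same hearts, so their kept direction is not independent support.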

How the data were processed

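Total RNA from 19 hearts was labelled with Cy3 after T7-linked oligo(dT) priming and hybridized to bead arrays, 1 animal per array, per the labels' protocols. The authors deposited average bead signals, raw intensities per the file headers, with a detection p-value for each probe and array, as deposited. The submitters' processing notes list BeadStudio 3 without its settings. The authors' deposited normalized intensities, on a linear scale with an unstated method, served as an alternative.

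Signals were background corrected and quantile normalized on the log2 scale with neqc in limma 3.58.1 (R 4.3.3, offset 16), per the detection p-values the authors deposited. Probes with a detection p under 0.05 on at least 4 arrays were kept, and the brightest probe stood for each gene, 14751 in all. Names came from the deposited table, updated through RefSeq (GRCm38.p6): accessions matched 26160 probes, current symbols 4643 and former symbols 3893, while 11936 kept the file's name. Linear models with a mean per group were fitted to all 19 arrays (lmFit, eBayes; 15 residual and 3.62 prior degrees of freedom), two-sided, with Benjamini-Hochberg adjustment over all genes and calls at an adjusted p under 0.05. The test was checked on simulated data. Lists were plotted where at least 5 genes were measured; 3 marker lists had fewer. The genes and the 35 function and 14 marker lists were chosen with earlier results of these data known. Named genes are the 12 of each sign with the smallest p for the difference and the 10 called genes of each sign with the largest average change, with official symbols and detected on every array of at least 1 group. Up to 3 members per list for the difference and for the average, and any member of the core clock, PPAR alpha and triglyceride synthesis lists, may be named too. Exceptions are said to be chosen after their values were seen. Low signals shrink fold changes. A group whose probe was below background on every array has only a bound, taken against the lowest detected signal of each array. Intensities carry no read depth. Replicate numbers follow the accession order and only name animals. The labels give no batch, so animal numbers under and over 20 were used as a block and as separate fits. Alternatives covered background correction, normalization, the detection filter, the probe rule, the variance model, array weights and leaving out arrays. Some genes are counted in the totals but not reported here.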

Additional observations from a re-analysis of the deposited data

Results flagged for a closer look

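All high fat hearts lay below the normal-diet hearts in WT and above them in CCM animals for Gm12250, with a difference of 0.824 between the responses that did not pass adjustment (adjusted p = 1).

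Single hearts stood apart from their group by Dixon's criterion in 21 of 256 groups examined (64 genes in 4 groups), 8.2%, where chance gives about 1 group in 20. Animal 32, the fourth normal-diet CCM heart, did so for Angptl4 (9.82), Pdk4 (14.11), Ucp3 (5.94) and Cidec (6.69). The first normal-diet CCM heart did so for Acaa1b (6.02) and Decr1 (10.55). Among high fat CCM hearts it was the first for Aqp8 (6.06) and Mtfmt (5.4), the second for Fgf21 (7.24) and Cyp2e1 (7.87), the third for Ifi47 (8.23) and Tceal7 (6.62), and the fourth for Mgll (12.43). Among high fat WT hearts it was the first for Ifi47 (6.62), Eci1 (13.23) and Hyou1 (5.65), the second for Decr1 (11.46) and the fourth for Whrn (10.48). Among normal-diet WT hearts it was the first for Mmp9 (5.43) and Trib3 (7.02) and the fourth for Hyou1 (5.92).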

How the results depend on the processing

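The count of genes called by limma for the difference between diet responses was 0 under every alternative run and with any 1 animal left out (400 at an unadjusted p under 0.05 as reported). The average diet effect (45 genes as reported) was called for 194 with array weights, 68 with animal numbers as a block, 2 and 0 within the animals numbered under and over 20, and 15 without the 3 arrays of lowest mean signal. The genes alike (24) numbered 41 without background correction, 40 in the authors' normalized values, 123 with array weights, 47 with the block, 0 and 0 within those parts, and 6 without the 3 dim arrays. The WT count (6) was 11 without background correction, 11 in the authors' values, 10 with trended and robust variance, 19 with array weights, 1 with the 2 groups alone, 10 with the block, 0 and 0 within the parts, and 2 without the 3 dim arrays. The CCM count (4) was 7 without background correction, 7 with a median shift, 8 with cyclic loess, 7 in the authors' values, 2 with probes detected on all arrays, 2 with no filter, 12 with array weights, 2 with the 2 groups alone, 10 with the block, and 0 and 0 within the parts. The correlation of the responses was -0.0597 and -0.064 within the parts. With 1 animal left out, the average effect ranged from 22 to 68 genes, those alike from 9 to 41, the WT count from 2 to 7, the CCM count from 0 to 8 and the correlation from 0.159 to 0.498. The parts and left-out animals leave fewer samples, and for the other settings the cause was not tested.

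For 45 named genes the difference kept its direction and stayed uncalled in all 571 values under alternatives and all 855 with 1 animal left out. For 26 genes the average effect kept its call in 253 of 334 and in 398 of 494, and none turned direction. Genes were named largely for their p in these same arrays, so a kept direction is not independent support. Over all genes the differences within animals numbered under 20 and over 20 correlated at -0.326. No paired analysis was possible because each animal has a number of its own in the labels and the replicate numbers follow only the accession order. The median 95% interval of 0.395 log2 units to either side limits what 4 or 5 animals a group can show, and genes near background have shrunken responses.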
